A study of Homo sapiens with 30 samples.

Results

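The ID genes and the genes that feed back on TGF-β signalling were followed in human bronchial epithelial cells after birch pollen had settled on them. The set held 10 genes, ID1, ID2, ID3, ID4, SMAD6, SMAD7, SKIL, TGFB1, TGFB2 and TGIF1, out of 43966 gene names on the array, and a probe was taken for a member when the array file gave it that gene name. The members had 12 probes in all, because ID2 and TGIF1 had 2 probes each. Of the 10 genes, 9 were bright enough to be tested, and ID4 was not.

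The cells were BEAS-2B, an immortalized line derived from human bronchial epithelium, kept at the air-liquid interface on coated Transwell inserts. Pollen cultures had 10 mg of whole birch pollen dispersed with pressured air into a sedimentation chamber and were harvested after 5 times, the shortest 10 min and the longest 24 h, with 55 min, 2h25 min and 6h50 min between them. Mock cultures, labelled air, went through the same chamber for the same times with the grains held back by a mesh. Each of the 10 groups had 3 arrays, so the series held 30 one-colour arrays. All groups are the same line without immune or other partner cells. The 8 epithelial markers examined, among them EPCAM, CDH1 and KRT5, were well above background on 30 of 30 arrays, and so were the mesenchymal markers VIM, CDH2 and FN1. Of the other markers, COL1A1 (fibroblasts), PTPRC and CD14 (leukocytes) and CDH5 (endothelial cells) were well above background on 30 arrays, CD3E on 17, and COL3A1 and PECAM1 on 0.

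Values are log2 intensities after subtraction of the 75th percentile of the same array, so 0 is the level of that percentile and a difference of 1 is a doubling. They can be compared between arrays for 1 probe but not between probes. A call is an adjusted p below 0.05 (limma, Benjamini-Hochberg over the 32100 probes tested) with at least a 1.1-fold change. Between 44.7% and 63.2% of the probes were well above background on an array, and 0 spots were saturated. The study's methods describe independent repetitions of the exposures on separate days, each run with its own mock control, but the labels do not tie a replicate number to a day or run. In extracts of a whole culture, fewer expressing cells and less RNA per cell cannot be told apart.

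The arrays lay on several slides, and this layout bears on the comparisons over time. The 10 min arrays shared a slide with replicate 1 of the 55 min mock group. The other 2 mock arrays of 55 min and replicates 2 and 3 of pollen at 55 min shared a slide with replicates 1 and 2 of both 2h25 min groups. Replicate 3 of both 2h25 min groups lay with the 24 h arrays, and the 6h50 min arrays had a slide and a scan of their own. Replicate 1 of pollen at 55 min was a different array design on its own slide.

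TGF-β ligands such as TGFB1 and TGFB2 bind paired receptors whose kinase activity phosphorylates SMAD2 and SMAD3, while the related BMP ligands act through other SMADs. Both branches switch on their own inhibitors. SMAD6 and SMAD7 block receptors and SMADs, SKIL (also called SnoN) and TGIF1 are co-repressors of SMAD-driven transcription, and the ID genes are early BMP targets whose products bind E proteins and keep them off DNA. In bronchial epithelium the pathway is known for its part in repair, growth arrest and the deposition of matrix.

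The promoters of 5 members are shown, because ID1, TGIF1, TGFB2 and SKIL were the members with an unadjusted p below 0.05 between pollen and mock at 2h25 min, and SMAD6 was among those called over time and holds a SMAD motif. Each is the 250 bases before the first listed start of the gene (RefSeq, GRCh38.p14), with motif letters in capitals. Any other starts of a member were not searched. ID1 lies at chr20:31605039-31605288, plus strand, TGIF1 at chr18:3411759-3412008, plus strand, TGFB2 at chr1:218345086-218345335, plus strand, SKIL at chr3:170357465-170357714, plus strand, and SMAD6 at chr15:66701986-66702235, plus strand.
ID1: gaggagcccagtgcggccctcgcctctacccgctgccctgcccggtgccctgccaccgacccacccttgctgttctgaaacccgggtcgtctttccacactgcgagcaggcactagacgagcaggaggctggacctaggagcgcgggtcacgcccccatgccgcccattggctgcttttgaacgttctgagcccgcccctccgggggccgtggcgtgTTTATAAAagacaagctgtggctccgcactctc
TGIF1: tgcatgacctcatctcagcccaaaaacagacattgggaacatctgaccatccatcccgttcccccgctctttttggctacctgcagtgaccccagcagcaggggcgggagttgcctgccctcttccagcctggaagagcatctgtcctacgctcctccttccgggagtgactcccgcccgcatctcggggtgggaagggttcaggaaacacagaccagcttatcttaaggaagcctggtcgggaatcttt
TGFB2: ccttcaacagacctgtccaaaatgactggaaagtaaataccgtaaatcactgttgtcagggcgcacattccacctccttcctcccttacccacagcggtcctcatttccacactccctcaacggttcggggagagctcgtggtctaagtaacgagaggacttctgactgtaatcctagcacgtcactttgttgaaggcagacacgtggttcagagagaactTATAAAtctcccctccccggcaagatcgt
SKIL: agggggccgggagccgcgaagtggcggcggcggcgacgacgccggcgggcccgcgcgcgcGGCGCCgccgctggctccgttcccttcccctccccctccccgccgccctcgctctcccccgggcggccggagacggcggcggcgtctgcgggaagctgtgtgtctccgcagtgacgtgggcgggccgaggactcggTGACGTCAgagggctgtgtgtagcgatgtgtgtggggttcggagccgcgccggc
SMAD6: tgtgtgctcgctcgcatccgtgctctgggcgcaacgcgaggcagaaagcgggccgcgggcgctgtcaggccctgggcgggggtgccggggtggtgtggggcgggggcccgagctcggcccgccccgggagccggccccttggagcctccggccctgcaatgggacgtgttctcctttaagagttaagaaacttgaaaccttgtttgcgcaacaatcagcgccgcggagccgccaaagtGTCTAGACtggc
Promoters of all 10 members were found in the table, and 5 motifs were searched on both strands. The TATA box letters TATAAA stood in 3 members, ID1, ID4 and TGFB2, and in 10.7% of 35116 promoters of the same length. In ID1 they were found on both strands at overlapping positions. The palindrome GTCTAGAC, which holds the SMAD binding element GTCT on both strands, stood in SMAD6 12 bases before the start and in 0.182% of all promoters. The GC-rich SMAD site GGCGCC (16.4% of all promoters) and the cyclic AMP response element TGACGTCA (1.65%) stood in SKIL. The AP-1 letters TGANTCA were in 0 members and in 6.57% of all promoters. TGIF1 had none of the 5 motifs in this window.

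At 2h25 min, 0 of 9 members were called between pollen and mock, where 0.0343% of all probes tested were called. At an unadjusted p below 0.05 (limma), 4 members lay higher in pollen, TGIF1, TGFB2, ID1 and SKIL, and 0 lay lower, against 1.51% of all probes that lay higher by this criterion. In the same 4 members all 3 pollen arrays lay above all 3 mock arrays, which 2.85% of all probes did. The median difference over the 9 members was 0.19, against -0.03 over all probes tested, and 6 of 9 members had a mean above mock, as did 41.6% of all probes.

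TGIF1, the co-repressor, had values of 0.13, 0.02 and 0.10 in replicates 1 to 3 of mock and 1.21, 0.78 and 0.55 in pollen. The groups did not overlap, and the mock arrays lay within a narrow band while the pollen arrays spread over more than 0.6. The means were 0.08 ± 0.06 (SD, n = 3) and 0.85 ± 0.34. The difference was 0.76 (SE 0.16), a 1.70-fold change with a 95% interval of 0.431 to 1.097 on the log2 scale, and its adjusted p was 0.13 (limma). Leaving out 1 array turned this into a call in 2 cases, without replicate 3 of pollen (0.91, adjusted p = 0.044) and without replicate 1 of mock at 55 min (0.76, adjusted p = 0.033), the latter through the spread shared by all groups. Between the 2 mock and 2 pollen arrays that shared a slide, the difference was 0.92 (SE 0.16) and was called (adjusted p = 0.040), as were 0.0498% of all probes. On the slide of replicate 3, with 1 array in each group, it was 0.45 (SE 0.23, adjusted p = 1) and not called, where 0.0125% of all probes were.

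ID1 is an inhibitor of basic helix-loop-helix factors. Its values at 2h25 min were 1.04, 2.06 and 1.64 in mock and 2.24, 3.04 and 2.34 in pollen. The groups did not overlap, though the lowest pollen array exceeded the highest mock array by under 0.2. The 3 differences between same-numbered arrays were 1.20, 0.98 and 0.69, so the pairs were closer to one another than the arrays within a group were. The mean difference of 0.96 (SE 0.33; 1.94-fold; 95% interval 0.28 to 1.64) did not pass the test (limma, adjusted p = 1). At 2h25 min the same replicate numbers deviated together, and with the replicate number as a block the adjusted p of ID1 was 0.157 and that of TGIF1 0.107, still with 0 members called against 0.137% of all probes.

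TGFB2, a secreted ligand, had values of -2.65, -3.03 and -3.03 in mock and -2.07, -2.41 and -2.44 in pollen. All 3 pollen arrays lay higher, and the paired differences of 0.58, 0.62 and 0.59 were nearly equal. The estimate was 0.59 (SE 0.20; 1.51-fold; limma adjusted p = 1). SKIL, the other co-repressor, had values of -2.07, -1.88 and -1.96 in mock and -1.66, -1.60 and -1.80 in pollen, again without overlap. Its estimate was 0.28 (SE 0.13; 1.22-fold; limma adjusted p = 1).

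**Figure D1:**
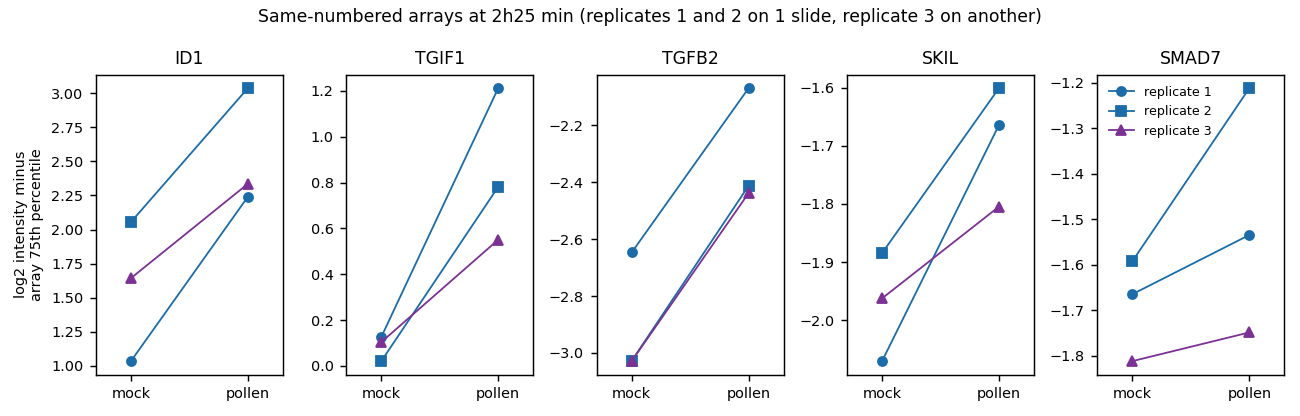
Log2 intensity minus the array's 75th percentile (y axis) of 5 members on the mock and pollen arrays at 2h25 min, with a line joining arrays of the same replicate number and the slide shown by colour. The 5 members were picked after their values were seen. All 15 lines go up, and in ID1, TGIF1, TGFB2 and SKIL the pollen arrays lie above the mock arrays.

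SMAD7, the inhibitor of the TGF-β receptor, was higher in pollen in 3 of 3 pairs at 2h25 min, by 0.13, 0.38 and 0.06, but the groups overlapped. Its values were -1.66, -1.59 and -1.81 in mock and -1.53, -1.21 and -1.75 in pollen, a difference of 0.19 (SE 0.13). ID2 also lay higher in 3 of 3 pairs, with a mean difference of 0.07. ID3 (-0.17, SD of the pairs 0.03) and SMAD6 (-0.23, SD 0.03) lay lower in pollen in 3 of 3 pairs. TGFB1 had a difference of -0.06 and lay higher in 1 of 3 pairs. For none of these 5 was the unadjusted p below 0.05 (limma). Of the ID genes, ID1 alone had groups that did not overlap at this time, and the difference between the ID genes was not tested.

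At the other times no member was called either. At 10 min, 0 of 9 members were called, 0 had an unadjusted p below 0.05, and 0% of all probes were called. At 55 min, 0 of 9 were called (0.00312% of all probes), and TGIF1 alone had an unadjusted p below 0.05 (limma, 0.34, SE 0.16, adjusted p = 0.92), where 1.52% of all probes did with pollen higher. TGIF1 read -0.63, -0.06 and 0.05 in mock and 0.17, -0.02 and 0.21 in pollen, and the low mock array, replicate 1, lay on the slide of the 10 min arrays. Without that array the difference was 0.13. ID1 read 1.504, 1.55 and 1.40 in mock and 2.73, 1.67 and 1.44 in pollen at 55 min, and the high array was the one of the other design. TGFB2 was the 1 member whose groups did not overlap at 55 min, with -3.12, -3.01 and -3.21 in mock and -2.82, -2.85 and -2.92 in pollen, a difference of 0.25 (SE 0.20). All pollen arrays lay above all mock arrays at 55 min in 5.99% of all probes, so 1 of 9 members is near the background. Between the arrays that shared a slide, ID1 differed by 0.08 (SE 0.38) and TGIF1 by 0.10 (SE 0.16).

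At 6h50 min, 0 of 9 members were called and 0 had an unadjusted p below 0.05, while 0.0436% of all probes were called. ID1 read 0.98, 1.00 and 0.96 in mock and 1.02, 1.32 and 1.64 in pollen, so that the groups did not overlap, with a difference of 0.34 (SE 0.33), and 6.52% of all probes separated in this direction. TGIF1 read 0.01, -0.01 and 0.01 in mock and -0.06, -0.21 and -0.13 in pollen, a difference of -0.14 (SE 0.16) on the opposite side from 2h25 min, again without overlap, as in 5.21% of all probes. At 24 h, 0 of 9 were called (0.00312% of all probes), and with the replicate number as a block again 0 (0.0187% of all probes). SMAD6 had an unadjusted p below 0.05 at 24 h, where 2.56% of all probes did with pollen higher. It read -6.94, -6.47 and -6.98 in mock, where it was not well above background on any array, and -6.77, -5.96 and -5.53 in pollen, where 2 of 3 arrays measured it. The fitted difference of 0.71 had an adjusted p of 1 (limma) and was 0.17 with normexp background and quantile normalization. Without 1 array it ran from 0.43 to 1.05.

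**Figure D2:**
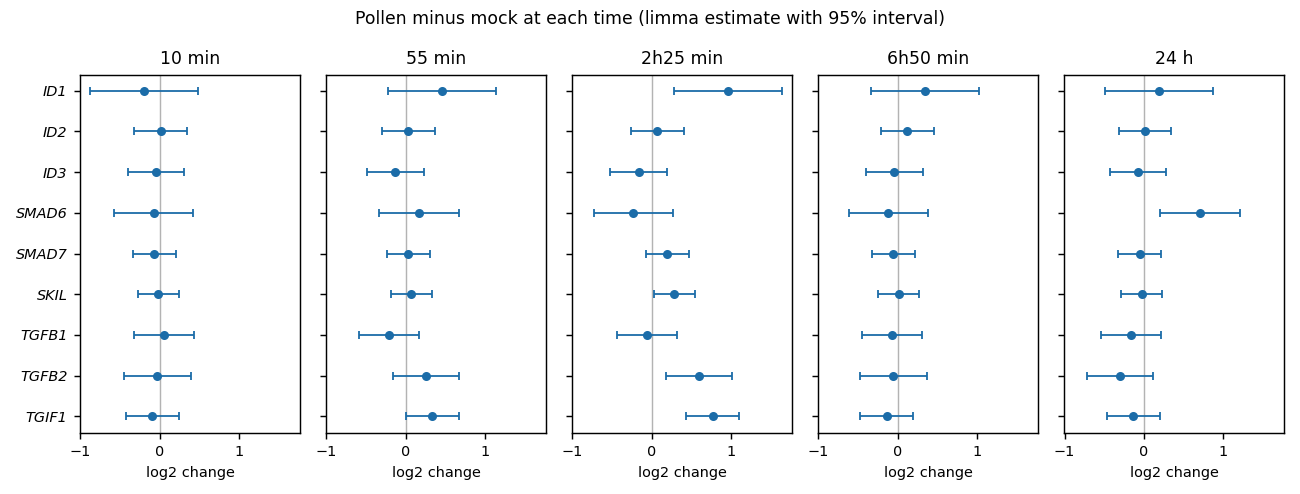
Difference between pollen and mock (x axis, log2 change) for each of the 9 tested members (y axis) in 1 panel per time, with points for the limma estimate and bars for the 95% interval. At 2h25 min the intervals of ID1, SKIL, TGFB2 and TGIF1 lie above 0, as do that of TGIF1 at 55 min and that of SMAD6 at 24 h.

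Whether the pollen effect itself moved between neighbouring times was tested as an interaction, and 0 of 9 members were called at any step. From 10 min to 55 min and from 55 min to 2h25 min 0% of all probes were called and 0 members had an unadjusted p below 0.05. Later, 3 did. From 2h25 min to 6h50 min, where 0.00312% of all probes were called, the pollen effect on TGIF1 moved by -0.90 (SE 0.23; limma adjusted p = 0.75) and that on TGFB2 by -0.65 (SE 0.29; adjusted p = 0.86), while 2.03% of all probes moved down at an unadjusted p below 0.05. From 6h50 min to 24 h, where 0% were called, that on SMAD6 moved by 0.83 (SE 0.34; adjusted p = 0.95), while 2.23% of all probes moved up at an unadjusted p below 0.05. The interval of the TGIF1 interaction ran from -1.38 to -0.43.

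More members were called over time within a condition than between conditions, and the same held for all probes. Over the steps between neighbouring times all probes gave 23493 calls in mock and 21901 in pollen. Between pollen and mock they gave 27 calls over the 5 times. From 10 min to 55 min, 0 of 9 members were called in mock (0.187% of all probes, with 0 members at an unadjusted p below 0.05) and 0 in pollen (0.841%). In pollen 3 members had an unadjusted p below 0.05 (limma), with TGIF1 higher by 0.62 (SE 0.16, adjusted p = 0.071), ID1 by 0.84 (SE 0.33, adjusted p = 0.23) and ID2 by 0.35 (SE 0.16, adjusted p = 0.31), against 6.68% of all probes higher by this criterion. The pollen arrays of 10 min and 55 min shared no slide, so this step cannot be told apart from the slide. The highest ID1 value at 55 min was from the array of the other design. From 55 min to 2h25 min, 0 members were called in mock (0.0156% of all probes, again with 0 at an unadjusted p below 0.05) and 0 in pollen (0.202%). In pollen 5 members had an unadjusted p below 0.05, with TGIF1 higher by 0.73 (SE 0.16, adjusted p = 0.066), TGFB2 by 0.55 (SE 0.20), SMAD7 by 0.40 (SE 0.13) and SKIL by 0.28 (SE 0.13), and with SMAD6 at -0.86 (SE 0.24), against 3.67% of all probes higher and 4.75% lower by this criterion. On the slide shared by 2 arrays of each of these pollen groups, TGIF1 was higher at 2h25 min by 0.90 (SE 0.16) and was called (limma, adjusted p = 0.026), as were 0.128% of all probes.

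**Figure D3:**
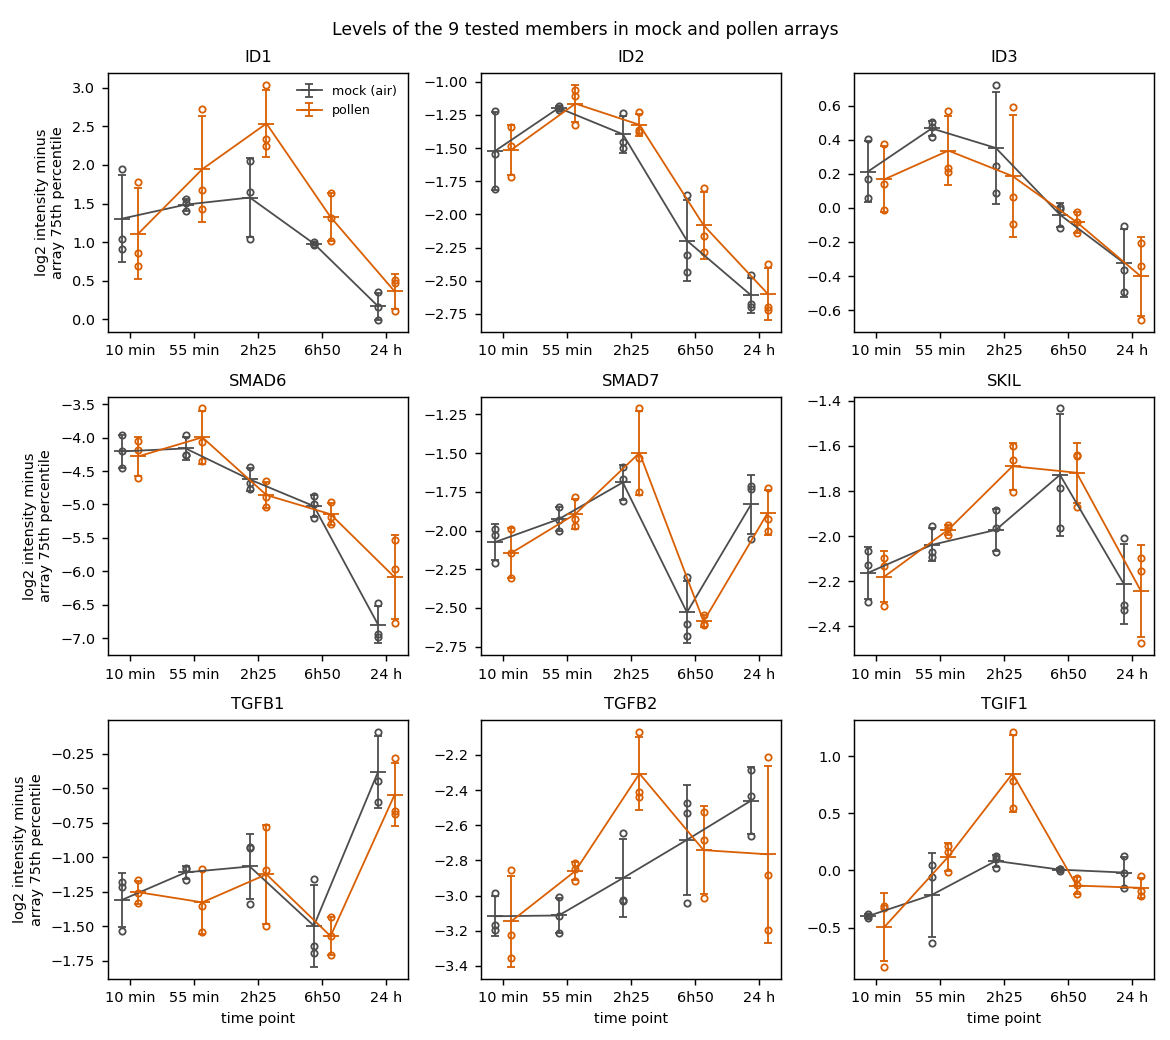
Log2 intensity minus the array's 75th percentile (y axis) of the 9 tested members against time (x axis) in mock (grey) and pollen (orange), with points for arrays, ticks for means and bars for the SD of 3 arrays. TGIF1 in pollen peaks at 2h25 min with a mean of 0.85, ID1, ID2 and SMAD6 are lowest at 24 h, and SMAD7 is lowest at 6h50 min.

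The change from 2h25 min to 24 h was compared because the 2 times share a slide in part. In mock 5 of 9 members were called, 4 lower (14.9% of all probes) and 1 higher (12.5%). In pollen 8 of 9 were called, 7 lower (11.8%) and 1 higher (11.2%). The median over the members was -0.24 in mock and -0.59 in pollen, against -0.07 and -0.02 over all probes. Whether this change differed between mock and pollen was not tested.

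The 3 tested ID genes fell in both conditions. ID1 in mock went from 1.04, 2.06 and 1.64 to 0.35, -0.0031 and 0.16, so every 24 h array lay below every 2h25 min array, by 1.41 in the mean (SE 0.33; 2.65-fold lower; limma adjusted p = 0.0024). In pollen ID1 went from 2.24, 3.04 and 2.34 to 0.51, 0.47 and 0.10, which was 4.52-fold lower (adjusted p = 5.6e-05). ID2 fell by 1.21 in mock (adjusted p = 7.4e-06) and by 1.27 in pollen (adjusted p = 8.2e-06). Its values were -1.45, -1.23 and -1.50 at 2h25 min and -2.67, -2.46 and -2.70 at 24 h in mock, and -1.36, -1.23 and -1.38 against -2.70, -2.37 and -2.72 in pollen. ID3 fell by 0.68 in mock (adjusted p = 0.0049) and by 0.59 in pollen (adjusted p = 0.016), and these were the least firm of the ID gene calls. The ID3 call was lost in mock without replicate 2 at 2h25 min (-0.49) and in pollen without replicate 2 at 2h25 min (-0.39) or replicate 2 at 24 h (-0.46).

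SMAD6, the inhibitor of BMP signalling, went the same way. In mock it read -4.77, -4.43 and -4.67 at 2h25 min and was not well above background at 24 h on any of the 3 arrays. The fitted log2 change was -2.17 (limma adjusted p = 1.1e-06). With each 24 h value raised at least to the lowest probe well above background on its array, SMAD6 was 3.95-fold lower. That floor is approximate and gives no firm bound. In pollen it read -5.04, -4.65 and -4.89 at 2h25 min and -6.77, -5.96 and -5.53 at 24 h. The fitted change in pollen was 2.35-fold lower (adjusted p = 0.00071), with 2 of 3 arrays at 24 h measuring the gene. The size of this change depended on the background correction. With normexp and quantile normalization the log2 change was -0.62 in mock and -0.37 in pollen, and in the deposited log2 table it was -0.96 and -0.57, each still called.

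TGIF1, SKIL and SMAD7 were called in pollen and not in mock, each lower at 24 h than at 2h25 min, although the difference from mock was not tested. TGIF1 fell by 1.00 (SE 0.16, adjusted p = 0.00011), from 1.21, 0.78 and 0.55 to -0.18, -0.22 and -0.05. The second TGIF1 probe did not fall in pollen over these times (0.13, SE 0.34). SKIL fell by 0.55 (SE 0.13, adjusted p = 0.0025). SMAD7 fell by 0.39 (SE 0.13, adjusted p = 0.035), a call lost without replicate 1 (-0.41) or replicate 2 (-0.24) at 2h25 min or without replicate 2 (-0.33) or replicate 3 (-0.37) at 24 h. It was called under 4 of 11 other settings, with an adjusted p of up to 0.76. TGFB1, the main ligand of the pathway, was the member called higher, by 0.68 in mock (SE 0.18, adjusted p = 0.0067) and 0.58 in pollen (SE 0.18, adjusted p = 0.024). Its values in mock were -1.34, -0.93 and -0.94 at 2h25 min and -0.09, -0.60 and -0.45 at 24 h, without overlap. The TGFB1 call was lost in mock without replicate 1 at 24 h (0.54) and in pollen without replicate 1 at 2h25 min (0.39) or replicate 1 at 24 h (0.45). TGFB2 was not called in either condition, with 0.44 in mock (SE 0.20, adjusted p = 0.11) and -0.46 in pollen (SE 0.20, adjusted p = 0.11).

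On the slide that held the 24 h arrays and replicate 3 of each 2h25 min group, the lone 2h25 min array was assumed to vary like the other groups. There ID1 (-1.47 in mock and -1.97 in pollen), ID2 (-1.11 and -1.22), SMAD6 (adjusted p = 0.00063 in mock and 0.033 in pollen) and, in pollen, TGIF1 (-0.70) were called (limma), where 13.3% of all probes were called in mock and 9.3% in pollen. ID3 (-0.57 in mock and -0.46 in pollen), TGFB1 (0.55 in both) and, in pollen, SKIL (-0.44) were of like size there and not called, whereas SMAD7 in pollen went from -0.39 to -0.14.

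The steps into and out of 6h50 min cannot be told apart from the slide and scan of that time. The all-probe median moved by -0.15 in mock and -0.11 in pollen into 6h50 min, and by 0.14 and 0.11 out of it. From 2h25 min to 6h50 min, 2 of 9 members were called lower in mock (22.6% of all probes) and 0 higher (9.9%), and in pollen 4 were called lower (19.9%) and 0 higher (11.1%). From 6h50 min to 24 h, 3 members were called lower in mock (15.9%) and 2 higher (24.7%), and in pollen 4 lower (14.5%) and 2 higher (21.8%).

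SMAD7 had a dip at 6h50 min. In mock it read -2.68, -2.30 and -2.61 there, below each of its arrays at 2h25 min (-1.66, -1.59 and -1.81) and at 24 h (-1.71, -2.05 and -1.73). The step down was 0.84 in size in mock (1.79-fold lower; limma adjusted p = 9.7e-05) and 2.13-fold in pollen (adjusted p = 6.6e-06), and the step up was 0.70 in both (adjusted p = 0.00027 and 0.00031). TGFB1 rose from 6h50 min to 24 h by 1.11 in mock (adjusted p = 6.9e-05) and 1.02 in pollen (adjusted p = 0.00020), and SKIL fell by 0.49 (adjusted p = 0.0040) and 0.52 (adjusted p = 0.0026).

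ID2 was called lower into 6h50 min in mock (-0.80, adjusted p = 0.00087) and pollen (-0.76, adjusted p = 0.0013). In pollen ID1 (-1.21, adjusted p = 0.0081) and TGIF1 (-0.98, adjusted p = 0.00015) were called lower as well. The ID1 call was lost without replicate 2 of pollen at 2h25 min (-0.96). Out of 6h50 min, ID2 was called lower by 0.41 in mock (adjusted p = 0.044) and by 0.52 in pollen (adjusted p = 0.015). In mock this call was lost without replicate 2 at 6h50 min (-0.24) or replicates 1 (-0.38) or 3 (-0.37) at 24 h, and in pollen without replicate 2 at 6h50 min (-0.38) or replicates 1 (-0.47) or 3 (-0.45) at 24 h. ID1 was called lower in pollen by 0.96 (adjusted p = 0.026), a call lost without replicate 2 (-0.97) or 3 (-0.81) at 6h50 min or replicate 3 at 24 h (-0.84). In mock ID1 fell short of a call at this step (-0.81, adjusted p = 0.053) and passed with the replicate block (adjusted p = 0.043). SMAD6 changed by -1.77 in mock (limma adjusted p = 9.7e-06), and was 2.99-fold lower with the approximate floor used above. In pollen it was 1.92-fold lower (limma adjusted p = 0.0043), and the log2 change of -0.94 became -0.60 without replicate 1 at 24 h and was still called. With normexp and quantile normalization these changes were -0.51 in mock and -0.39 in pollen, and in the deposited log2 table -0.84 and -0.63, each still called.

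ID4 was not tested, because no group had it well above background on all 3 arrays. It was well above background on 1 of 30 arrays, replicate 2 of pollen at 2h25 min, where it read -6.74.

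The 2 probes of TGIF1 did not run together. The probe used above lies at chr18:3458026-3458079 (hg19, plus strand), and the other at chr18:3449919-3449978, assigned by the files to another transcript. At 2h25 min the other probe read -3.14, -1.62 and -2.74 in mock and -2.98, -2.95 and -2.49 in pollen, so the groups overlapped and mock replicate 2 lay apart. Its difference was -0.31 (SE 0.34), against 0.76 (SE 0.16) for the probe used. Averaging both probes gave 0.23 for TGIF1 at 2h25 min. The pollen difference at 55 min was -0.59 for the other probe and 0.34 for the probe used. In pollen the other probe moved by -0.43 from 10 min to 55 min and by -0.14 to 2h25 min, against 0.62 and 0.73. Into 6h50 min both probes fell in pollen, the other by 0.77. The other probe also rose from 6h50 min to 24 h, by 0.98 in mock and 0.90 in pollen, where the probe used had no call. In ID2 both probes fell from 2h25 min to 24 h, the other probe by 1.27 in mock and 1.36 in pollen.

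**Figure D4:**
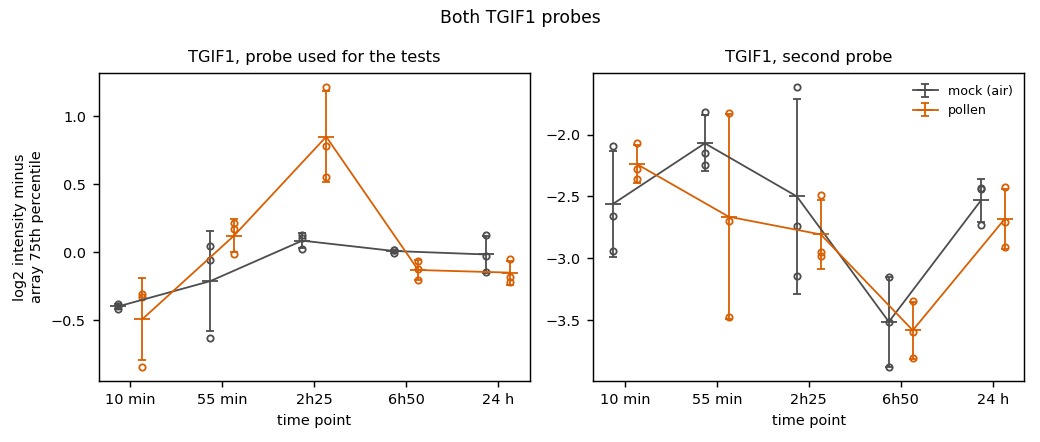
Log2 intensity minus the array's 75th percentile (y axis) of both TGIF1 probes against time (x axis) in mock (grey) and pollen (orange), with points for arrays, ticks for means and bars for the SD of 3 arrays. The probe used for the tests lies higher in pollen at 2h25 min by 0.76, whereas the second probe overlaps between the groups and lies lowest at 6h50 min.

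A list of 61 further TGF-β and BMP pathway genes was read beside the members, of which 56 were tested. The list was drawn up with earlier results of these data known, and the study had itself reported CCN2 higher in pollen at 2h25 min. The counts below are therefore not an independent test of the pathway. At 2h25 min 39 of 56 lay higher in pollen, as did 41.6% of all probes. An unadjusted p below 0.05 (limma) was found in 12 with pollen higher (1.51% of all probes) and in 0 with pollen lower. Of the 56, 2 were called (0.0343% of all probes). The median of the 56 was 0.13, against -0.03 over all probes. The target genes stood highest, with 11 of 13 above mock, 2 called and a median of 0.62. Of the ligands and binding proteins 9 of 16 lay higher, of the receptors 8 of 11, of the SMADs and their regulators 8 of 13, and of the E proteins, the partners of the ID proteins, 3 of 3, with 0 called in each.

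CCN2 (also called CTGF), a matrix-associated target, rose from 0.79 ± 0.03 (SD, n = 3) in mock to 2.23 ± 0.14 in pollen at 2h25 min, by 1.44 (SE 0.12; limma adjusted p = 1.1e-06). BHLHE40, a basic helix-loop-helix repressor, rose from -0.96 ± 0.20 to -0.06 ± 0.10, by 0.90 (SE 0.16; limma adjusted p = 0.046), a call lost without any 1 of 5 of its 6 arrays (adjusted p up to 0.38). Of genes named after their values were seen, INHBA, which encodes a subunit of activin, lay higher by 1.298 (SE 0.29, adjusted p = 0.23), CCN1 by 0.95 (SE 0.20, adjusted p = 0.11), SNAI1 by 0.73 (SE 0.20, adjusted p = 0.62) and KLF10 by 0.66 (SE 0.18, adjusted p = 0.55). With the replicate number as a block these 4 were called too, which made 6 of 56, against 0.137% of all probes. At 55 min CCN2 was the 1 pathway gene called, where 0.00312% of all probes were. It went from 2.00 ± 0.16 in mock to 2.81 ± 0.14 in pollen (0.81, SE 0.12, limma adjusted p = 0.028). That call was lost without any 1 of 5 of its 6 arrays and held under 5 of 10 other settings, and with the block its adjusted p was 0.077. At 10 min, 6h50 min and 24 h 0 of the 56 were called, with 0, 4 and 2 at an unadjusted p below 0.05.

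**Figure D5:**
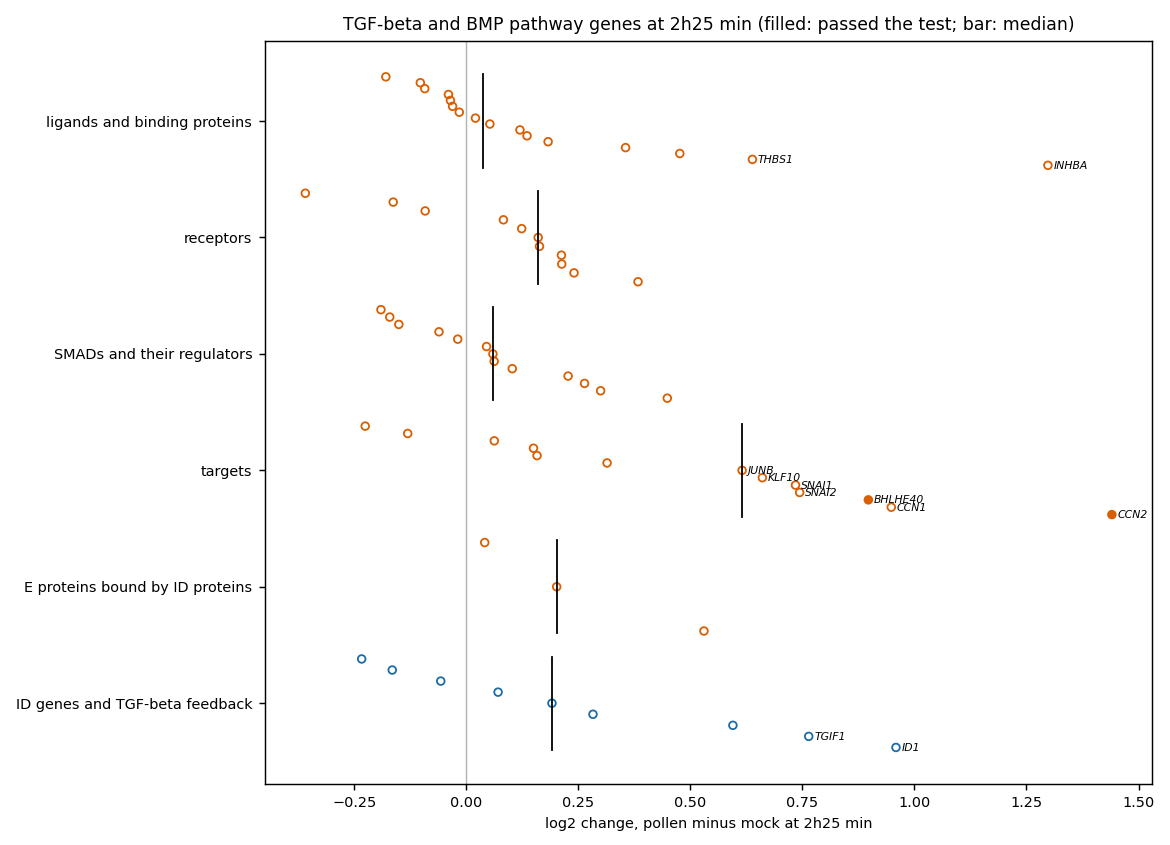
Difference between pollen and mock at 2h25 min (x axis, log2 change) for 56 pathway genes by role and for the 9 tested members (bottom row), with filled points for genes that passed the test and a bar for each median. CCN2 (1.44) and BHLHE40 (0.90) are the filled points, and the median of the targets is 0.62 against 0.19 for the members. The gene list was drawn up with earlier results of these data known.

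Over the 10 group means, the genes most like ID1 were INHBA (r = 0.99), GBP1 (r = 0.98) and PTGER4 (r = 0.98), followed by GADD45B and SH3RF3-AS1 (both r = 0.97). Those most like ID3 were DPYSL3, SPACA6, PPP1R12A-AS1, PMS2P7 and IFT122 (each r = 0.98). Those most like SMAD7 were an unnamed transcript (r = 0.98), LOC100132741 (r = 0.98), WNT1 (r = 0.97), AMPH and lnc-ANKRD50-2 (both r = 0.96). The profile of TGFB2 was most like that of DKK1 (r = 0.97), SMAD3 (r = 0.93), CEMIP2 (r = 0.92), PPP1R3B and PTX3 (both r = 0.91). Among the members, ID2 ran with ID3 (r = 0.97) and with SMAD6 (r = 0.90), ID1 with ID2 (r = 0.84), and TGFB2 with TGIF1 (r = 0.80). These are descriptions over 10 points that share slides and array scaling, and the genes outside the set were taken as the highest of all genes tested.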

How the data were processed

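RNA of BEAS-2B cells was hybridised to Agilent one-colour arrays, and the authors deposited scanner output of Feature Extraction 11.0.1.1 (version from the submitters' processing notes) with processed and mean intensity per spot, together with a table of their processed log2 values, whose scale and centring are not stated and which was used only as an alternative, with replicate 1 of pollen at 55 min treated as missing because its column did not follow its scanner file (r = -0.0021). Members and gene lists were chosen with earlier results of these data known. Outlier spots were left out, spots of a probe averaged, log2 taken, and the array's own 75th percentile, read over 33873 probes that both array designs carry, subtracted. A probe was kept if all 3 arrays of some group had it well above background (32100 kept). A single limma 3.58.1 model (R 4.3.3) with 10 group means over 30 arrays was fitted, with moderated statistics, Benjamini-Hochberg adjustment and, as in the study's methods, 0.05 and 1.1-fold as thresholds. A gene with several tested probes was represented by the probe on both designs with the highest mean over all arrays. Probes on 1 design only had 2 pollen arrays at 55 min, and all 12 member probes were on both designs. The text names all 10 members, the pathway genes called between pollen and mock, and the 5 genes most correlated with each of ID1, ID3, SMAD7 and TGFB2, plus pathway genes called with the replicate block, which were added after their values were seen. Same-numbered arrays of pollen and mock deviated together in every pair at 10 min, 2h25 min and 24 h (r from 0.22 to 0.52), but not at 55 min or 6h50 min. The script for the fit was tested on simulated data. Array number limits the precision. The alternatives tried were the percentile over each array's own probes, normexp background with quantile normalization, quantile normalization of the processed signal, no filter, array weights, slide as a random block, the replicate block, the deposited log2 table, leaving out dim areas, the mean of a gene's probes, and leaving out each array. Motifs were searched in RefSeq promoters of GRCh38.p14; probe positions are hg19 as the files give them, and their place within exons was not analysed here.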

Additional observations from a re-analysis of the deposited data

Results flagged for a closer look

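On the probe used for the tests, TGIF1 lay above mock on all 3 pollen arrays at 2h25 min, as did 2.85% of all probes. It lay below mock on all 3 at 6h50 min, as did 5.21%. The difference between the pollen effects was -0.90 on the log2 scale (limma adjusted p = 0.75). The groups of the second TGIF1 probe overlapped at both times. ID4 was well above background on 1 array, replicate 2 of pollen at 2h25 min, and on no mock array.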

How the results depend on the processing

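Between pollen and mock, 0 members were called under each of the 10 other settings tried, and 0 to 1 (TGIF1 at 2h25 min) when 1 array was left out. The comparison within 1 slide, which used fewer arrays, called TGIF1 at 2h25 min (limma adjusted p = 0.040). The change of the pollen effect gave 0 member calls under each of the 10 settings and with any 1 array left out. The steps over time in mock gave 7 member calls, 1 with the percentile of each array's own probes, 11 with array weights, and 6 to 10 without 1 array. All probes gave 23493 calls over these steps, and 5653 to 33115 under the other settings. The steps in pollen gave 10 member calls, 3 with the own-probe percentile, and 8 to 12 without 1 array. All probes gave 21901 there, and 4715 to 29144 under the other settings. Between 24 h and 2h25 min all probes gave 16177 calls, and 2527 to 21033 under the other settings. The 13 member calls there became 6 with the own-probe percentile and stayed at 11 to 13 without 1 array. That percentile moved the median of all probes between pollen and mock at 55 min to -0.60, since replicate 1 of pollen has another design, and quantile normalization moved the all-probe median of the step from 2h25 min to 6h50 min from -0.15 to 0.02 in mock. TGIF1 at 55 min reversed, to -0.32 with the own-probe percentile, which moved the all-probe median by the amount given above. With the mean of its probes it was -0.13, where the second probe alone gave -0.59. SKIL in mock from 6h50 min to 24 h lost its call with normexp (-0.19) and with the deposited table (-0.21), and TGIF1 in pollen from 2h25 min to 24 h with the mean of its probes (-0.44). SMAD6 kept its calls over time under all 10 settings, but normexp and the deposited table made the changes smaller by over 1.5 times in log2 terms. Pairing by replicate number (the replicate block) gave 0 member calls between pollen and mock. In steps over time the block pairs no arrays and enters only through the estimated spread. It changed 1 member call in all, ID1 in mock from 6h50 min to 24 h (limma adjusted p = 0.043). Calls of pathway genes between pollen and mock, added up over the 5 times, numbered 3. These were CCN2 at 55 min and 2h25 min and BHLHE40 at 2h25 min. The number of calls was 0 with the own-probe percentile, 5 with normexp, 1 without the filter, 6 with the block and 1 to 5 without 1 array. Of single-gene values, 354 of 408 kept their direction and side of the threshold under other settings and 203 of 234 without 1 array. Calls of all probes between pollen and mock, added up over the 5 times, numbered 27. They ran from 3 to 875 under the alternatives and from 9 to 521 without 1 array.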
